A study of Mus musculus with 6 samples.

Results

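Transcripts of 10 genes that encode neutrophil granule proteins were followed in effector memory CD4+ T cells, helper T cells with antigen experience, sorted alive from the spleens of Il1rn knockout and wild-type mice. The genes were taken by symbol from a deposited table of 34866 genes. They were Ngp, Ltf, Lcn2, Camp and Mmp8 of specific granules, Mmp9 of gelatinase granules, Mpo of azurophil granules, the calprotectin genes S100a8 and S100a9, and the lysozyme gene Lyz2. The set was chosen by its difference in counts between the knockout and wild-type libraries, seen in an earlier look at the same table. Levels of the 10 genes in these groups are therefore given as a description, without a test.

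The wild-type group (WT) and the knockout group (Il1rnKO) held 3 libraries each, made from poly(A) RNA. Il1rn is the gene of a secreted antagonist that competes with interleukin-1 for its receptor. The labels name no treatment. They do not state strain, age or sex, what the knockout allele removes, or whether the libraries of a group came from separate animals. The p-values therefore cover no more than the spread among these libraries, and that spread may be technical.

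Neutrophils store antimicrobial proteins in granules that are filled one after another while the cell matures in the bone marrow. Azurophil granules are made first and carry myeloperoxidase and serine proteases, specific granules follow with lactotransferrin and cathelicidin, and gelatinase granules come last. Calprotectin is a cytosolic protein that is very abundant in neutrophils and also present in monocytes, and lysozyme is made by neutrophils, monocytes and macrophages. CD4+ T cells are not regarded as a main source of these proteins. In bulk RNA from sorted T cells fewer cells that carry a transcript and less of it per cell cannot be told apart.

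Sequencing depth was similar across libraries, from 14102183 to 17677217 counts. A limit of 3 counts in a library corresponded to 0.17 to 0.213 CPM, the count scaled to the library total. Every library carried transcripts of CD4 T cells. The 7 genes Cd3e, Cd3d, Cd3g, Cd4, Cd5, Trac and Cd28 summed to 3960 to 4340 CPM among wild-type libraries and 4190 to 4500 CPM among knockout libraries. They were listed for CD4 T cells in general, not for the effector memory state. Values by library are given below in the order of replicates 1, 2 and 3 of a group. Il1rn itself had wild-type counts of 6, 10 and 0 and knockout counts of 1, 3 and 1, too few to check the knockout. The share of mitochondrially encoded transcripts was 5.68, 7.32 and 8.92% for the wild-type libraries and 3.69, 3.44 and 8.34% for the knockout libraries. In this measure Il1rnKO 3, the library with the most granule transcripts, stood with the wild-type libraries and apart from the other knockout libraries, and the part of RNA quality in the results was not tested.

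The stretches before the start of Ngp, Ltf, S100a8 and S100a9 are shown because these 4 genes had the most knockout counts among the granule and calprotectin genes. The sequences are RefSeq's on GRCm38.p6, each written on the gene's own strand, without bases that GENCODE M21 annotates as exon of the gene. Capitals mark the letters TTNNGNAA, a form of the site bound by C/EBP factors of granulocyte maturation, and GAGGAA, a form of the site bound by PU.1 (encoded by Spi1), each on either strand, so that the complements TTNCNNAA and TTCCTC are marked too.
Ngp, chr9:110419558-110419746, plus strand: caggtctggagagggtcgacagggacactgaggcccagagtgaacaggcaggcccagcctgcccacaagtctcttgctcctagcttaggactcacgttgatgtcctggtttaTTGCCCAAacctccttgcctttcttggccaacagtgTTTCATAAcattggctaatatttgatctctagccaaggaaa
Ltf, chr9:111019042-111019270, plus strand: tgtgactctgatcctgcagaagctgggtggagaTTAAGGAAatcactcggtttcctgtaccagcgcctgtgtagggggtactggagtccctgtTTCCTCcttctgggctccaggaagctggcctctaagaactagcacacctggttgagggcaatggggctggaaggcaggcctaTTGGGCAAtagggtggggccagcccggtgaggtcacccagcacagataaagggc
S100a8, chr3:90668821-90668977, plus strand: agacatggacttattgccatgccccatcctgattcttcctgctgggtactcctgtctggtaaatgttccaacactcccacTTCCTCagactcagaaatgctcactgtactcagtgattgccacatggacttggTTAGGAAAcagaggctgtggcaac
S100a9, chr3:90695722-90695971, minus strand: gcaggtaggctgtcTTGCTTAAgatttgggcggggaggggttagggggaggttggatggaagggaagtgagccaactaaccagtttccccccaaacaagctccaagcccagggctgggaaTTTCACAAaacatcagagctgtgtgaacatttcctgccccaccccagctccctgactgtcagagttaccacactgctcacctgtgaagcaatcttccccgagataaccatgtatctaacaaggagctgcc

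RefSeq's promoter table held 9 of the 10 genes. In the 250 bases before the start, TTNNGNAA was found in 7 of the 9 (Lcn2, S100a8, S100a9, Mmp8, Ngp, Ltf and Lyz2) and in 36.8% of all 32851 promoters. GAGGAA was found in 5 of the 9 (Lcn2, S100a8, Mmp8, Ltf and Mpo) and in 23.3% of all promoters, and both motifs stood in 4 of the 9 and in 8.87% of all. Matches of the motifs may share bases and each was counted, though in these 9 genes none overlapped. Another match of TTNNGNAA before Ngp and another of GAGGAA before S100a8 lie among the exon bases that are not printed. For Lcn2 all 250 bases are annotated as exon of the gene, so its matches of both motifs lie in exon. The match of Lyz2 runs into annotated exon bases. A match is a description of letters, not of binding.

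The specific granule genes were close to absent in wild type and present in all 3 knockout libraries. Ngp, which encodes a granule protein of mouse neutrophils, was at 0 in each wild-type library, with knockout counts of 145, 104 and 247. Ltf, the gene of the iron-binding protein lactotransferrin, had wild-type counts of 4, 0 and 0 and knockout counts of 84, 61 and 371. Every knockout library lay above every wild-type library for both genes, and Il1rnKO 3 was the highest. Ngp averaged 10.1 ± 3.75 CPM over the knockout libraries (SD, n = 3), at least 163-fold higher than wild type when that group is set to 3 counts over its libraries. This bound, 7.35 on the log2 scale, was 6.7 without WT 1, 6.74 without WT 2 and 6.86 without WT 3, since 3 counts weigh more over fewer libraries. Ltf averaged 0.0754 ± 0.131 CPM over the wild-type and 10.3 ± 9.78 CPM over the knockout libraries (SD, n = 3).

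Camp, Lcn2 and Mmp8 showed the same order of groups at fewer counts. Camp encodes the mouse cathelicidin, a precursor of an antimicrobial peptide, and had wild-type counts of 7, 0 and 0 and knockout counts of 24, 25 and 81. Lcn2 encodes lipocalin-2, which binds bacterial siderophores, and had wild-type counts of 1, 7 and 0 and knockout counts of 26, 20 and 85. In both genes Il1rnKO 1 and 2 were near each other and Il1rnKO 3 was well above them. Mmp8, the gene of neutrophil collagenase, was at 0 in each wild-type library, with knockout counts of 22, 5 and 23, at least 16.1-fold higher in mean CPM. On the log2 scale this bound was 4.01, and 3.36, 3.4 and 3.52 without WT 1, 2 and 3 in turn.

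Camp averaged 0.132 ± 0.229 CPM over the wild-type and 2.63 ± 1.81 CPM over the knockout libraries, and Lcn2 0.157 ± 0.225 and 2.63 ± 2 CPM (SD, n = 3). Summed over the 5 specific granule genes, wild type averaged 0.364 ± 0.342 CPM and knockout 26.6 ± 17.6 CPM (SD, n = 3). The log2 ratio of these means was 6.19, with 5.5 when Il1rnKO 3 was left out and 7 when WT 1 was. Lcn2 alone had a log2 ratio of 4.06, and 6.54 without WT 2. WT 3 held no count of any of these 5 genes.

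The calprotectin genes were seen at low counts in wild type and at higher counts in each knockout library. S100a8 and S100a9 encode calcium-binding proteins that pair to form calprotectin, which withholds metal ions from microbes. S100a9 had wild-type counts of 28, 0 and 1 and knockout counts of 147, 161 and 589. S100a8 had wild-type counts of 18, 9 and 0 and knockout counts of 146, 57 and 323. The groups did not overlap for either gene, and WT 1 was the highest of the wild-type libraries for both. S100a9 averaged 0.552 ± 0.895 CPM over the wild-type and 18.1 ± 14.1 CPM over the knockout libraries, and S100a8 0.517 ± 0.509 and 10.5 ± 7.55 CPM (SD, n = 3).

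Per kilobase of annotated exon, S100a9 was 1.34, 3.76 and 2.42 times as high as S100a8 in Il1rnKO 1, 2 and 3. The excess of S100a9 was thus seen in each knockout library, but its size differed between libraries. The summed calprotectin level had a log2 ratio of means of 4.74, which was 3.93 without Il1rnKO 3 and 6.56 without WT 1. For S100a9 alone it was 5.03, and 8.99 without WT 1, which held all but 1 of its wild-type counts.

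Mmp9, which encodes gelatinase B of the last-formed granules, had wild-type counts of 0, 20 and 3 and knockout counts of 33, 40 and 63. It averaged 0.466 ± 0.632 CPM over the wild-type and 2.81 ± 0.861 CPM over the knockout libraries (SD, n = 3). The groups did not overlap, but WT 2 came near the knockout libraries, with Il1rnKO 1 at 1.64 times its CPM. The log2 ratio of means was 2.59, and 4.72 without WT 2.

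Lyz2, one of the mouse lysozyme genes, was the granule transcript with a clear level in a wild-type library. Its wild-type counts were 142, 11 and 7 and its knockout counts 164, 120 and 311. WT 1, at 8.03 CPM, was just under Il1rnKO 2, at 8.48 CPM, so that the groups were separated by 1.06 times only. Lyz2 averaged 3.06 ± 4.31 CPM over the wild-type and 12.1 ± 5.24 CPM over the knockout libraries (SD, n = 3), and the log2 ratio of 1.98 was 4.39 without WT 1. Its paralog Lyz1 had wild-type counts of 1, 4 and 2 and 0 in each knockout library.

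Mpo, the azurophil granule gene of myeloperoxidase, did not follow the others. Its wild-type counts were 0, 4 and 0 and its knockout counts 27, 6 and 2. The groups overlapped, and Il1rnKO 3, the highest library for the other 9 genes, was the lowest knockout library for Mpo. Mpo averaged 0.079 ± 0.137 CPM over the wild-type and 0.709 ± 0.776 CPM over the knockout libraries (SD, n = 3). The log2 ratio of means was 3.17, and 1.77 without Il1rnKO 1. Mpo shares 512 exon bases with the antisense gene Gm11505, and without knowledge of the strand setting reads of the pair cannot be told apart.

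All 3 knockout libraries were above all 3 wild-type libraries in 9 of the 10 genes, Mpo being the exception. The same held for 5.83% of the 20255 genes with at least 1 count and for 6.89% of the 13374 that passed a filter on low counts. Since the genes were chosen for this contrast nothing is read from the difference. Of the 10 genes, 8 passed that filter, and Mmp8 and Mpo did not. WT 1, 2 and 3 held 0 counts of 4, 5 and 7 of the genes, while each knockout library held at least 1 count of every gene.

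**Figure D1:**
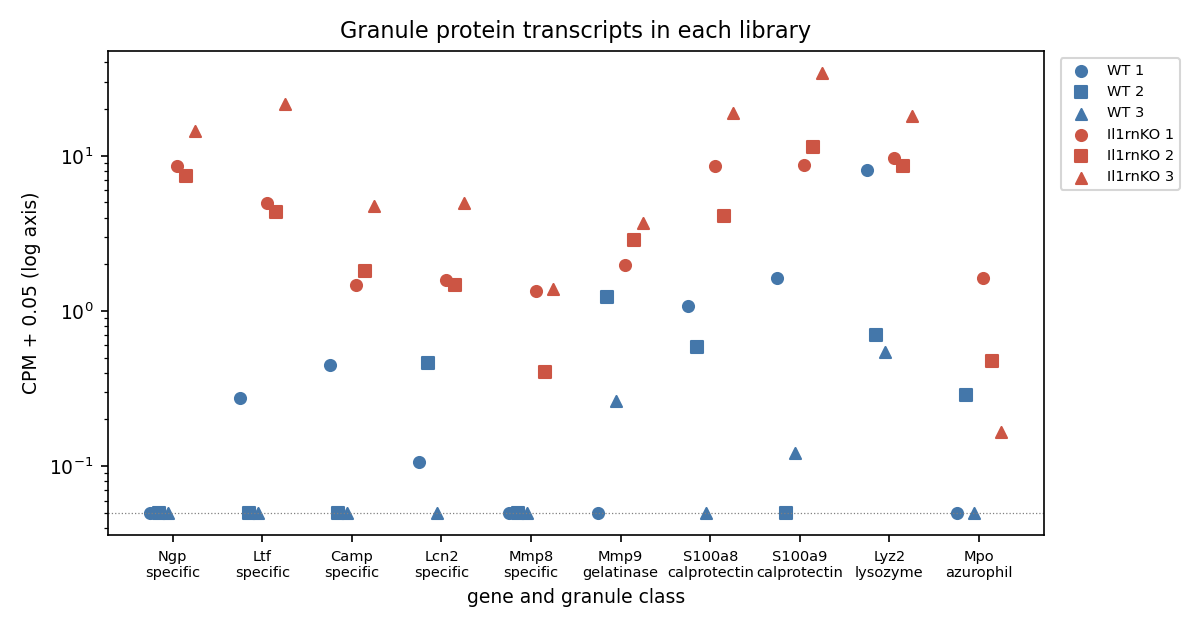
CPM of each granule gene in each of the 6 libraries, with 0.05 added for the log axis, so that points on the dotted line had 0 counts. Blue points are wild-type and red points knockout libraries, and the marker shape gives the replicate number. The knockout points lie above the wild-type points in 9 of 10 genes, with WT 1 close to the knockout libraries for Lyz2 and the groups mixed for Mpo.

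The knockout libraries had a like share of specific granule genes among their granule transcripts, and differed in the shares of the other classes. The 10 genes together had knockout counts of 818, 599 and 2095 and wild-type counts of 200, 51 and 11. Shares below are of counts, which long transcripts gather faster than short ones, so they are compared between libraries and not between genes. Specific granule genes made up 36.8% (95% Clopper-Pearson interval 33.5 to 40.2), 35.9% (32 to 39.9) and 38.5% (36.4 to 40.6) of these counts in Il1rnKO 1, 2 and 3. The 3 intervals, which cover counting error only, overlap.

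Calprotectin genes made up 35.8% (32.5 to 39.2), 36.4% (32.5 to 40.4) and 43.5% (41.4 to 45.7) in Il1rnKO 1, 2 and 3, highest in Il1rnKO 3 beyond counting error. Lysozyme made up 20% (17.4 to 23), 20% (16.9 to 23.5) and 14.8% (13.3 to 16.4) in the same libraries. The intervals of Il1rnKO 1 and 2 overlapped for both shares, and Il1rnKO 3 had relatively more calprotectin and less lysozyme. Mmp9 made up 4.03% (2.79 to 5.62), 6.68% (4.81 to 8.98) and 3.01% (2.32 to 3.83), with the intervals of Il1rnKO 2 and 3 apart. The share of Mpo differed more widely, with 3.3% (2.19 to 4.77), 1% (0.368 to 2.17) and 0.0955% (0.0116 to 0.344) in Il1rnKO 1, 2 and 3.

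WT 1 had another make-up. Lyz2 gave 71% (64.2 to 77.2) of its 200 granule counts, calprotectin 23% (17.4 to 29.5) and specific granule genes 6% (3.14 to 10.2). The specific granule share was below, and the lysozyme share above, the interval of every knockout library. Because the genes were chosen by their difference between the groups, this contrast in shares is a description and nothing is read from it. In WT 2, with 51 counts, Mmp9 gave 39.2% (25.8 to 53.9), and WT 3 had too few counts, 11, for its make-up to be described.

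Within the specific granule class the proportions differed between knockout libraries. The count of Ltf was 0.579 and 0.587 times that of Ngp in Il1rnKO 1 and 2 and 1.5 times in Il1rnKO 3. The count of Lcn2 was 0.179, 0.192 and 0.344 times, and that of Camp 0.166, 0.24 and 0.328 times, the count of Ngp in Il1rnKO 1, 2 and 3. These 3 genes were highest relative to Ngp in Il1rnKO 3. Mmp8 was not, at 0.152, 0.0481 and 0.0931 times the count of Ngp, and was highest in Il1rnKO 1. Against the mean CPM of Il1rnKO 1 and 2, Il1rnKO 3 was at 1.81 times for Ngp, 4.66 times for Ltf, 3.42 times for S100a9, 2 times for Lyz2, 1.54 times for Mmp9 and 0.116 times for Mpo.

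**Figure D2:**
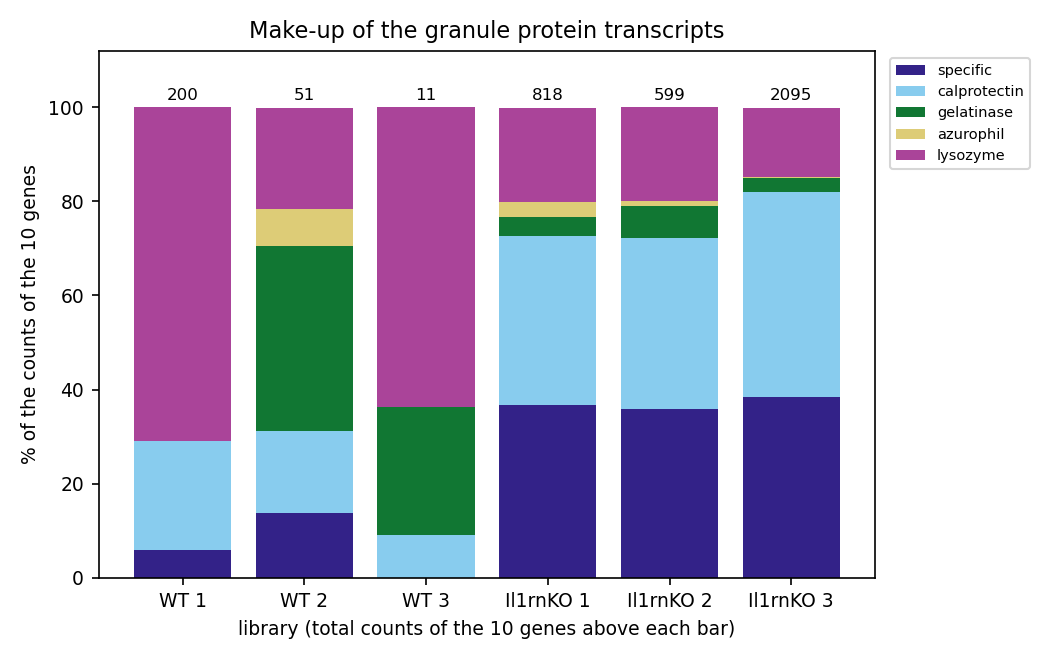
Share of the summed counts of the 10 granule genes that each class gave, in percent, by library, with the summed counts above each bar. Specific granule genes gave 35.9 to 38.5% in the knockout libraries and 6% in WT 1, where lysozyme gave 71%.

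Scaled to the length of annotated exon, the order of levels in the knockout libraries was led by S100a9 at 34.6 ± 26.9 CPM per kb, followed by S100a8 at 15.1 ± 10.9, Lyz2 at 9.17 ± 3.98 and Ngp at 8.25 ± 3.07 (SD, n = 3). Camp at 3.47 ± 2.39 and Ltf at 2.98 ± 2.84 CPM per kb came next. Lcn2 at 1 ± 0.764, Mmp9 at 0.794 ± 0.243, Mmp8 at 0.41 ± 0.229 and Mpo at 0.207 ± 0.227 CPM per kb were the lowest (SD, n = 3). Neighbours in this order differed by less than the larger of their SDs, except for the steps from Ngp to Camp and from Mmp9 to Mmp8. Within each knockout library S100a9 was first, Mmp8 was at place 9 and Mpo was last, whereas S100a8 was at place 2, 4 and 2.

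**Figure D3:**
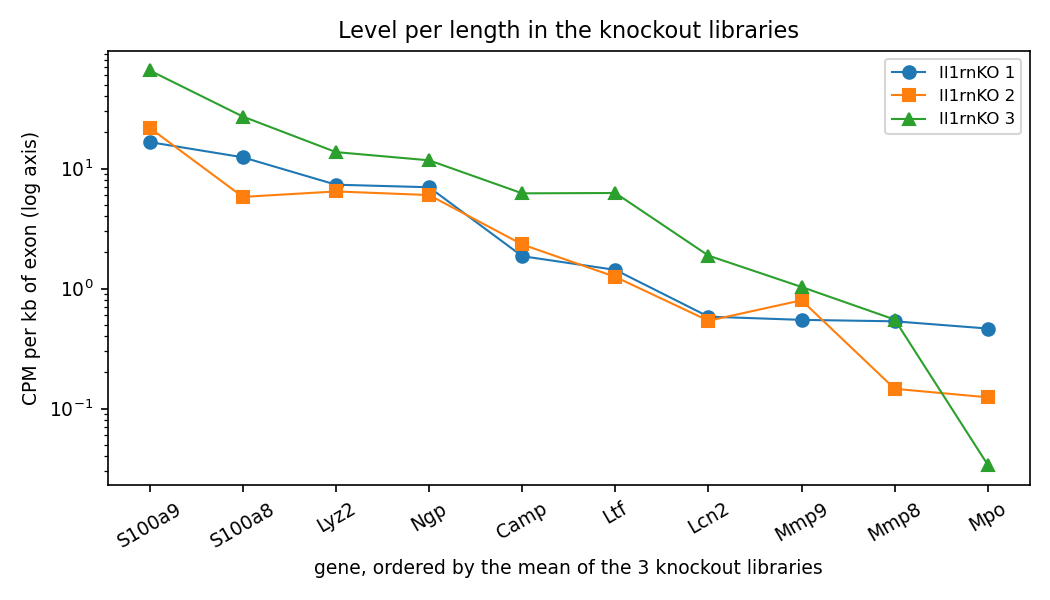
CPM per kilobase of annotated exon, on a log axis, of each granule gene in the 3 knockout libraries, with genes ordered by their mean. S100a9 is first and Mpo last in each library, and Il1rnKO 3 is the highest library for every gene but Mpo.

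Other genes of granulocytes, which are not among the 10 but were listed with earlier results of these data known, were then compared across the whole table with edgeR's quasi-likelihood test and Benjamini-Hochberg adjustment. Of 55 such genes, 48 had at least 1 count and 23 passed the filter, and 0 of the 23 passed the threshold of 0.05 in either direction. Over all 13374 tested genes, 0.0523% were called, 0.0299% as higher in the knockout. At an unadjusted p under 0.05, edgeR counted 4 of the 23 as higher and 0 as lower, against 2.53% and 1.54% of all tested genes. DESeq2, without the filter, called 0 by adjusted p and counted 13 of the 48 as higher at an unadjusted p under 0.05, against 2.1% of all its genes. The median log2 fold change (knockout over wild type) of the 23 genes was 0.36, and that of all tested genes was 0.017.

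Genes with at least 1 count were also compared by whether the groups overlapped in CPM, whether or not they passed the filter. All 3 knockout libraries were above all 3 wild-type libraries in 16 of the 48 genes (33.3%, against 5.83% of all genes with a count), and the reverse held for 0 of the 48 (against 2.07%). Not every gene was higher in the knockout, and Ms4a3 and Cebpe had counts in a wild-type library alone.

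Among other azurophil granule genes there was next to nothing. The serine protease genes Elane and Prtn3 reached at most 3 counts in a wild-type library and had 3 and 17 in Il1rnKO 1, while Ctsg, Bpi and Prss57 were at 0 throughout. Ms4a3, a membrane protein gene of granulocyte precursors, had 7 counts in WT 3 alone. These 6 genes summed to 0 to 0.496 CPM among wild-type and 0 to 1.18 CPM among knockout libraries, with the groups overlapping. As for Mpo, the highest library was Il1rnKO 1.

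Among other specific granule genes, Chil3, a chitinase-like protein gene, had wild-type counts of 2, 0 and 0 and knockout counts of 17, 6 and 22. Cd177, a surface protein gene of neutrophils, had wild-type counts of 11, 0 and 0 and knockout counts of 18, 9 and 34, and its log2 fold change of 2.48 (SE 1.27) did not pass (edgeR adjusted p = 0.988). Hp, the haptoglobin gene, had wild-type counts of 8, 0 and 2 and knockout counts of 15, 5 and 40. By CPM the groups did not overlap for Chil3 and Cd177, 2 of the 5 genes of this list, against 5.83% of all genes with a count. The groups overlapped for Hp. They also overlapped for Slpi, a protease inhibitor gene (log2 fold change 0.27, SE 1.07).

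The other gelatinase granule genes held 3 of the 4 genes with an unadjusted edgeR p under 0.05. These were all 3 of the list that passed the filter, against 2.53% of all tested genes that were higher at that threshold. Mmp25, which encodes a membrane-bound metalloprotease of neutrophils, averaged 2.79 ± 0.29 CPM over the wild-type and 6.62 ± 1.67 CPM over the knockout libraries (SD, n = 3), and its log2 fold change was 1.18 (SE 0.39). Itgam, the integrin CD11b of myeloid cells, averaged 1.93 ± 0.688 and 4.65 ± 1.33 CPM, and Adam8, a membrane protease, 7.64 ± 2.51 and 13.4 ± 2.73 CPM (SD, n = 3). In these 3 of the 5 genes all knockout libraries were above all wild-type libraries, against 5.83% of all genes with a count. None passed across all genes, with an edgeR adjusted p of 0.988 for each. Fcnb, a ficolin gene, was at 0 throughout, and Slc11a1, a metal transporter gene of phagocytes, had wild-type counts from 0 to 18 and knockout counts from 1 to 6.

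The genes of the NADPH oxidase, which makes superoxide in phagocytes, were present in both groups, and for 2 of the 5 (Ncf4 and Ncf1) every knockout library was above every wild-type library, against 6.89% of all genes past the filter. Cyba averaged 89.1 ± 18.5 CPM over the wild-type and 99.4 ± 12.8 CPM over the knockout libraries, and Cybb 44.7 ± 16.1 and 53.7 ± 7.77 CPM (SD, n = 3). Ncf4, a cytosolic subunit, averaged 71.8 ± 11.6 and 98.4 ± 11.8 CPM (SD, n = 3), and its log2 fold change was 0.36 (SE 0.15, edgeR adjusted p = 0.988). The groups overlapped for Cyba and Cybb. For Ncf4, WT 1 and Il1rnKO 3 were both at 84.9 CPM after rounding.

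Some receptors of mature neutrophils were present in both genotypes, and others had few counts on the knockout side. Of the 12 receptor genes, the 4 with the highest CPM were Il1r2 with a log2 fold change of -0.32 (SE 0.49), Cxcr2 with 0.60 (SE 0.48), Csf3r with 1.86 (SE 0.94) and Fcgr3 with -0.55 (SE 0.96). Csf3r, the receptor of the granulocyte growth factor, had wild-type counts of 20, 7 and 14 and knockout counts of 12, 16 and 127, so that Il1rnKO 3 alone was high. Ly6g, the antigen by which mouse neutrophils are recognised, was at 0 in each wild-type library, with knockout counts of 9, 9 and 12. Fpr2, a receptor for formylated peptides, was at 0 in each wild-type library, with knockout counts of 2, 3 and 30.

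Ly6g and Fpr2 were singled out after their values were seen, as were Trem1 and Pilra. Trem1, an activating receptor of myeloid cells, had wild-type counts of 3, 0 and 0 and knockout counts of 7, 7 and 20. Pilra, an inhibitory receptor of myeloid cells, had wild-type counts of 0, 1 and 0 and knockout counts of 10, 5 and 24. In these 4 genes and in Clec4e all knockout libraries were above all wild-type libraries. These are 5 of the 12 receptor genes, against 5.83% of all genes with a count. None of the 5 passed the filter. Fpr1 had counts in Il1rnKO 3 alone and Clec4d in Il1rnKO 1 alone, and Mrgpra2b was at 0 throughout.

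Genes of the cytosol and of secreted proteins showed both kinds too. The 4 with the highest CPM of the 16 were Mxd1, Pglyrp1, Hdc and Stfa3, and their log2 fold changes were 0 (SE 0.26), 0.43 (SE 0.21), -0.44 (SE 0.46) and 0.45 (SE 0.62). The next 3 genes were singled out after their values were seen. Ifitm6, an interferon-induced membrane protein gene, was at 0 in each wild-type library, with knockout counts of 2, 2 and 30. Wfdc21, which encodes a small secreted protein, was at 0 in each wild-type library, with knockout counts of 3, 11 and 4. Retnlg, a resistin-like gene of mature neutrophils, had wild-type counts of 0, 0 and 3 and knockout counts of 6, 1 and 6, with overlapping groups. Asprv1 had wild-type counts of 0, 7 and 12 and knockout counts of 0, 0 and 8. For Acod1 they were 0, 9 and 0, and 0, 3 and 7. G0s2, Stfa2 and Stfa2l1 had counts in a single knockout library alone, and Stfa1 and BC100530 were at 0 throughout. In 3 of the 16 genes all knockout libraries were above all wild-type libraries, against 5.83% of all genes with a count.

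Of 6 transcription factor genes of granulocyte formation, 3 passed the filter and 0 were called, against 0.0523% of all tested genes. Cebpb, Gfi1 and Cebpa, with the highest CPM of the 6, had log2 fold changes of -0.36, -0.04 and 0.08 (SE 0.24, 0.18 and 0.33). Cebpd, below the filter, had wild-type counts of 4, 6 and 11 and knockout counts of 2, 15 and 7. Cebpe, which is needed for specific granules, had 5 counts in WT 2 and 0 in the other libraries. Spi1, which encodes PU.1, was at 0 in each wild-type library, with knockout counts of 1, 11 and 38. It was below the filter, and with no filter its edgeR adjusted p was 0.196.

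**Figure D4:**
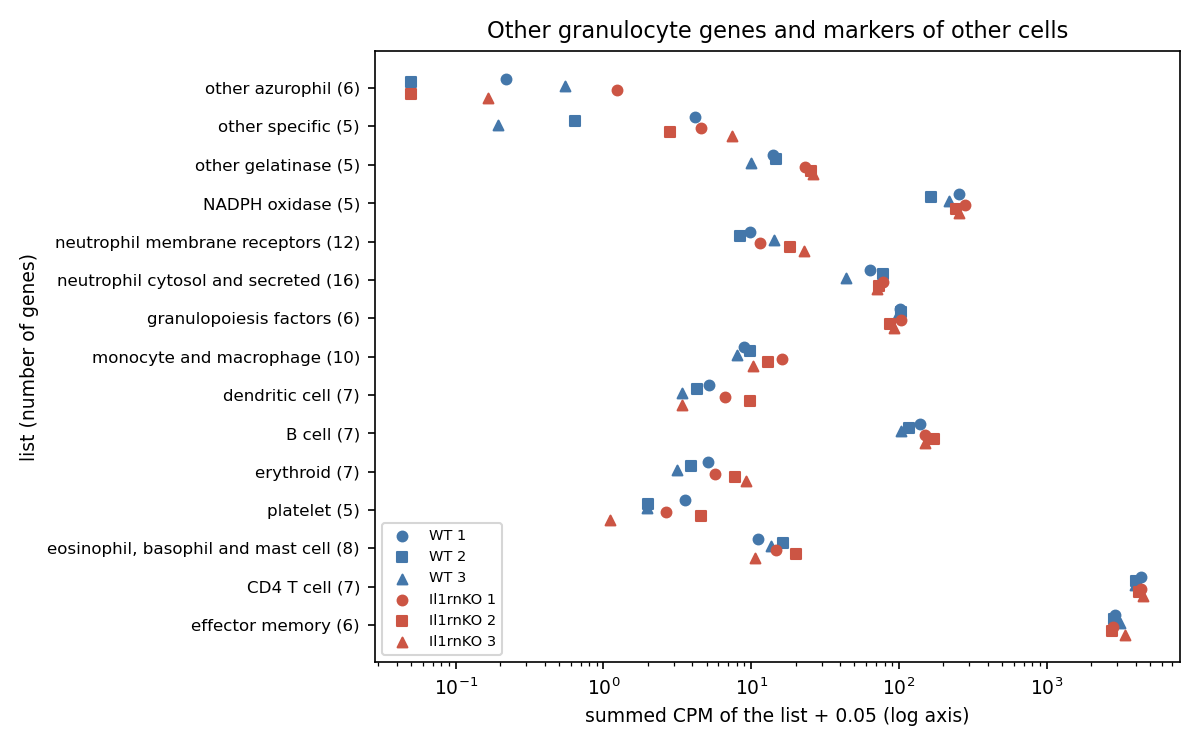
Summed CPM of each list of other granulocyte genes and of markers of other cell types in the 6 libraries, with 0.05 added for the log axis. Blue points are wild-type and red points knockout libraries, and the groups do not overlap for the other gelatinase, monocyte and macrophage, B cell and erythroid lists.

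Of 6 lists of markers of other blood cells, 3 had a higher sum in every knockout library than in any wild-type library. The 10 monocyte and macrophage genes summed to 8.01 to 9.83 CPM among wild-type and 10.2 to 16.1 CPM among knockout libraries, and 2 of the 10 (C1qa and C1qc) had knockout libraries that were all above the wild-type libraries, against 5.83% of all genes with a count. C1qa, a complement gene of macrophages, was at 0 in each wild-type library, with knockout counts of 11, 9 and 9. Csf1r, the receptor that defines this lineage, had wild-type counts of 16, 15 and 9 and knockout counts of 13, 36 and 27, with overlapping groups. Cd68 and Vcam1, with the highest CPM of this list, had log2 fold changes of 0.24 and -0.49 (SE 0.60 and 0.47). Il1rnKO 1, and not Il1rnKO 3, was the highest library for this list's sum, through Cd68. That gene gave 183, 73 and 23 of the list's 273, 182 and 176 counts in Il1rnKO 1, 2 and 3. Without Cd68 the sum would be highest in Il1rnKO 3, and the groups would overlap.

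The 7 B cell genes summed to 103 to 139 CPM among wild-type and 150 to 172 CPM among knockout libraries. Most of it came from the immunoglobulin gene Ighm, and the groups overlapped for Cd79b (log2 fold change 0.22, SE 0.57). The 7 erythroid genes summed to 3.12 to 5.09 CPM among wild-type and 5.65 to 9.24 CPM among knockout libraries, with Klf1, an erythroid transcription factor gene, at 0 throughout. In each of these lists 1 of 7 genes, Ighm and the haemoglobin gene Hbb-bs, had all knockout libraries above all wild-type libraries, against 5.83% of all genes with a count. No such share was computed for summed lists. The part of these cell types in the granule transcripts was not tested.

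The groups overlapped for the summed dendritic cell list (3.33 to 5.15 CPM for wild type, 3.37 to 9.75 CPM for knockout), the platelet list (1.91 to 3.51 and 1.05 to 4.52 CPM) and the list of eosinophils, basophils and mast cells (11.1 to 16.3 and 10.6 to 20.2 CPM). Cpa3, a protease gene of mast cells, had wild-type counts of 15, 25 and 12 and knockout counts of 3, 0 and 7. All wild-type libraries were above all knockout libraries for it, against 2.07% of all genes with a count, and its log2 fold change of -2.41 (SE 1.07) did not pass (edgeR adjusted p = 0.988). The defining platelet genes Pf4, Ppbp and Gp1bb, the eosinophil granule genes Prg2 and Epx, and the dendritic cell gene Cd209a were at 0 throughout. Of the 44 genes of the 6 lists, 18 passed the filter, and edgeR called 0 of them, with 2 higher and 1 lower at an unadjusted p under 0.05. DESeq2 also called 0, with 4 at an unadjusted p under 0.05.

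Camp, Ngp and Ltf lie near each other on chromosome 9, between positions 109847379 and 111042767 (GRCm38). Of the 30 other genes of the table in this stretch, 17 passed the filter, and edgeR called 0 of them, with 0 at an unadjusted p under 0.05 by edgeR or DESeq2. Their median log2 fold change was 0.06, from -0.9 to 1.08. S100a8 and S100a9 lie in the cluster of S100a genes on chromosome 3. Of 11 other S100a genes there, 8 passed the filter, and edgeR and DESeq2 called 0, with 0 at an unadjusted p under 0.05. Their median log2 fold change was 0.26, and S100a4, a gene of memory T cells, had wild-type counts of 1293, 1917 and 1688 and knockout counts of 1787, 1200 and 4991, highest in Il1rnKO 3.

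The genes whose distribution over the 6 libraries was most like that of the granule genes were sought among 13306 genes with at least 60 counts in all. Likeness was the overlap between a gene's shares of its CPM in the 6 libraries and the mean shares of the granule genes, which were 27.3, 18.6 and 47.8% in Il1rnKO 1, 2 and 3. The median overlap of all genes was 56.6%. Cd177 came first at 88.5%, followed by Apol6 at 87.8%, Ifitm1 at 87.5%, 1700020L24Rik at 84.4%, Sirpa at 84.2%, Ighg3 at 84.1%, Arhgap19 at 83.3% and Trdv2-2 at 82.8%. Ifitm1, an interferon-induced membrane protein gene, had wild-type counts of 37, 67 and 18 and knockout counts of 131, 92 and 362. Sirpa, which encodes an inhibitory receptor of myeloid cells, had wild-type counts of 7, 0 and 8 and knockout counts of 18, 15 and 57. Among the granule genes, the overlap with their own mean ran from 53.1% for Mpo to 93.4% for Ngp.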

How the data were processed

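The authors deposited estimated counts per gene, unscaled, with 79.3% of the values whole. Per the submitters' processing notes, they used GRCm38. No label or header names the aligner, the counting program or its strand setting. GENCODE M21 symbols matched 34652 identifiers with the version left off.

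Counts were rounded. CPM uses plain library totals, and length is the union of annotated exons. Ratios of group means have no test; a group at 0 was set to 3 counts over its libraries.

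edgeR 4.0.16 (R 4.3.3) used TMM, filterByExpr (minimum count 10, minimum total 15) and two-sided quasi-likelihood tests, adjusted over 13374 genes. SE is the fold change over the square root of F. Fits were tested on simulated data. DESeq2 1.42.0, RLE, 2 filters, a replicate block and each library left out were alternatives.

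Members and lists were chosen with earlier results of these data known. The text names all members, the 4 most abundant genes of each granulocyte list, the 2 most abundant and undetected genes of other lists, and the 8 most similar genes; others were singled out after their values were seen. Of the genes the rule names, 2 are not reported here.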

Additional observations from a re-analysis of the deposited data

How the results depend on the processing

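The number of genes called across the table was 7 with the main settings, 58 without a filter, 25 by DESeq2 and 11 with a replicate block, and ran from 3 to 10 with a library left out (3 or 4 without WT 1, 2 or 3 or without Il1rnKO 1 or 2, and 10 without Il1rnKO 3); RLE and a filter of 50 counts in 3 libraries gave 7 each. The count of called granulocyte genes outside the 10 was 0 in each of the 12 settings. Whether replicate numbers pair the samples is not settled. Same-numbered deviations from the group means correlated at 0.108, 0.054 and 0.116, and differently numbered ones at -0.115 to 0.036. Each library thus correlated best with its own number, but weakly. With a replicate block, 1228 genes had an unadjusted edgeR p under 0.05, against 545 with the main settings. The log2 ratios of summed CPM, with a library left out, ran from 1.77 to 3.67 (azurophil), 5.5 to 7 (specific), 2.01 to 4.72 (gelatinase), 3.93 to 6.56 (calprotectin) and 1.47 to 4.39 (lysozyme), and for all 10 genes from 3.17 to 5.22. Azurophil and gelatinase classes are 1 gene each. No sum changed sign. Low counts limit Mpo and each gene below the filter.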
